A study of Arabidopsis thaliana with 8 samples.

Results

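Outside the chaperone families, 5 genes of Arabidopsis thaliana stood far higher after heat. They are AT1G72660, AT5G25450, AT1G21550, AT5G10695 and AT5G07330. Each was read by 1 probe set, a group of short probes against 1 transcript, so the set holds 5 of the 22810 probe sets on the array. The genes were picked for their large heat responses on these same arrays. Their heat responses are therefore given as a description and without a test.

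The study measured shoots of seedlings in the Col-0 background with one-colour ATH1 arrays, 2 per group and 8 in all. The groups were seedlings carrying the Hsa32 (At4g21320) T-DNA insertion at 37 °C, the same mutant at 22 °C, wild-type seedlings at 37 °C and wild-type seedlings at 22 °C. Every seedling was 15 days old and was harvested directly after 2 h at its temperature, and each array carried RNA from a separate pool of about 100 plants. All mutant plants came from 1 insertion line, GABI-268A08, so the line and the loss of the gene cannot be told apart.

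Signals are the values the authors deposited, in intensity units on a linear scale. Each array had been scaled to a 2% trimmed mean of 500.04 to 500.07, and the number of arrays limits the precision. For wild-type control replicate 1 the title says control, while the source text names heat shock and lacks the word control. The title was followed. HSA32 itself, the disrupted gene, read 378 and 589 in the heated knockout and 1125 and 1247 in the knockout at 22 °C, against 23175 and 9240 in heated wild type and 657 and 230.0 in wild type at 22 °C. Of the leaf markers with a named probe set, LHCB4.1 and the Rubisco activase gene RCA read 16090 or more on each array. Of the root markers, EXPA7 read 96.8 or less and the peroxidase gene AT5G19890 91.7 or less, while PYK10, a myrosinase gene of roots and seedlings, read 2095 to 9286. The seed and flower markers had no named probe set.

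When plants are heated, heat shock transcription factors bind short repeated elements in promoters and switch on a large set of genes. Chaperones, which keep proteins folded, are the best known part of that set, but genes of translation, mitochondria, signalling and other functions are switched on as well. Of the 5 genes, AT1G72660 encodes a GTP-binding protein of the DRG family, whose members are conserved from archaea to plants and animals and are linked to ribosomes. AT5G25450 encodes QCR7-2, a small subunit of complex III, the part of the mitochondrial respiratory chain that passes electrons from ubiquinol to cytochrome c. AT1G21550 encodes CML44, a calmodulin-like protein with EF-hand motifs, the loops that bind calcium. AT5G10695 and AT5G07330 are protein-coding genes for which no role is given here.

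AT1G72660, the DRG-type GTPase gene, was close to dark without heat. It read 5503 and 8505 in the heated knockout and 25.9 and 9.80 in the knockout at 22 °C. In wild type it read 7613 and 3641 after heat and 11.4 and 21.6 at 22 °C. All 4 controls lay under the 20th percentile of the signals, 29.1, so no fold is given against them. In bulk shoots, more cells with a transcript and more transcript per cell cannot be told apart.

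AT5G25450, the complex III gene QCR7-2, had a clear signal before heat. It read 37436 and 21826 in the heated knockout, against 594 and 292 in the knockout at 22 °C. In heated wild type it read 17814 and 26615, against 266 and 310 in wild type at 22 °C. The lowest heated array was 36.8-fold above the highest control in the knockout and 57.5-fold above it in wild type.

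AT1G21550, the calmodulin-like gene CML44, had uneven wild-type controls. Its signal was 24999 and 13871 in the heated knockout and 28.5 and 11.1 in the knockout at 22 °C. It was 16099 and 18496 in heated wild type and 266 and 53.6 in wild type at 22 °C. Both knockout controls lay under 29.1. In wild type the lowest heated array was 60.4-fold above the highest control.

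AT5G10695 had the smallest ratios of heated to control signal among the 5 genes. It read 47096 and 27096 in the heated knockout and 1018 and 623 in the knockout at 22 °C, with 26153 and 32608 in heated wild type and 544 and 728 in wild type at 22 °C. The smallest ratio of a heated array to a control was 26.6 in the knockout and 35.9 in wild type.

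AT5G07330 read 16694 and 11798 in the heated knockout, against 4.6 and 52.0 in the knockout at 22 °C. In wild type it read 5898 and 11696 after heat and 67.6 and 37.5 at 22 °C. Its controls were dim in both genotypes and its heated arrays lay far above them. For each of the 5 genes both heated arrays lay above both controls in each genotype, as they did for 18% of all tested probe sets in the knockout and 13% in wild type. The genes were picked on that difference, so nothing is read from this count.

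**Figure D1:**
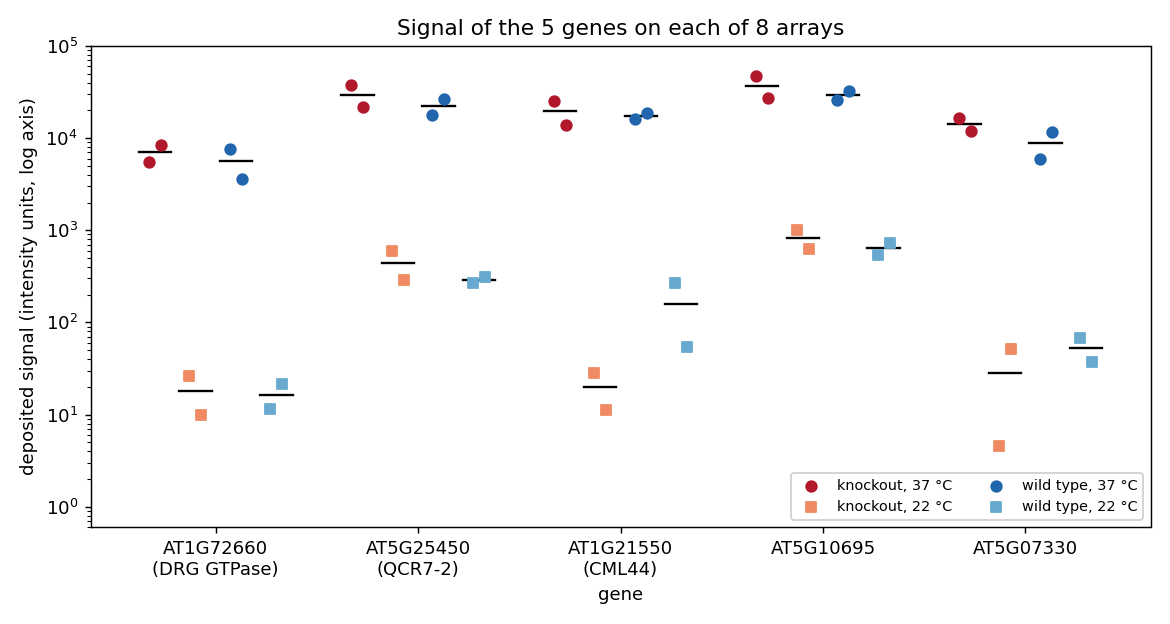
Deposited signal (intensity units, log axis) of the 5 genes on each of the 8 arrays, with 2 points per group and a line at each group's mean. Heated arrays (circles) lie above controls (squares) for each gene in the knockout and in wild type; levels are not comparable between genes, since each has its own probes.

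Fold changes were taken on the scale log2(signal + 29.1), with the offset set at the 20th percentile of the signals, and limma fitted the 4 group means over the 15919 probe sets that passed a filter on the dimmest 30% (mean signal above 61.7). The offset keeps noise at low signals from inflating a fold, and it understates folds of dim transcripts. All 5 genes passed the filter. AT1G72660 and AT5G07330 had control means under 61.7 in both genotypes and AT1G21550 in the knockout, so these passed because of their heated arrays.

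In the knockout the heat response on the log2 scale was 8.60 ± 0.58 for AT1G21550, 8.07 ± 0.52 for AT5G07330 and 7.21 ± 0.44 for AT1G72660 (SE, n = 2 arrays per group). It was 6.0 ± 0.44 for AT5G25450 and 5.44 ± 0.39 for AT5G10695. In wild type it was 6.79 ± 0.58 for AT1G21550, 6.70 ± 0.52 for AT5G07330, 6.87 ± 0.44 for AT1G72660, 6.11 ± 0.44 for AT5G25450 and 5.47 ± 0.39 for AT5G10695. The median of the 5 was 7.21 in the knockout and 6.70 in wild type, beside medians over all tested probe sets of -0.26 and -0.22 in the same order of genotypes. Among all tested probe sets AT1G21550 ranked 15 by its knockout response and AT5G10695, the lowest of the 5, ranked 68. By the wild-type response the ranks ran from 24 for AT1G72660 to 48 for AT5G10695.

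The order within the set was thus not the same in each genotype. In wild type AT1G72660, AT1G21550 and AT5G07330 lay within 0.17 of each other, less than the SE of any of them. With this offset AT5G25450 and AT5G10695 came last in each genotype. The offset mattered for the 3 genes that were dim at 22 °C, and it changed the order. With an offset of 7.275 the knockout values were 9.50 for AT1G21550, 9.05 for AT5G07330 and 8.17 for AT1G72660, and with an offset of 116.4 they were 7.11, 6.63 and 5.70. With the larger offset AT5G25450 stood at 5.74 in the knockout, above AT1G72660. In wild type it stood at 5.76, above AT5G07330 at 5.65 and AT1G72660 at 5.34. For AT5G25450 and AT5G10695 each alternative moved the value by less than the spread between replicates.

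The 4 heated arrays did not order the 5 genes alike. AT5G10695, AT5G25450, AT1G21550 and AT5G07330 were each higher on knockout heat replicate 1 than on replicate 2, by 1.42 to 1.8 times, and higher on wild-type heat replicate 2 than on replicate 1, by 1.15 to 1.98 times. AT1G72660 went the other way. It was 1.55 times higher on knockout heat replicate 2 than on replicate 1 and 2.09 times higher on wild-type heat replicate 1 than on replicate 2.

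The top of each array's signal range moved with the first 4 genes. The signal that 0.1% of probe sets exceeded was 42465 on knockout heat replicate 1 and 26529 on replicate 2, and 25828 on wild-type heat replicate 1 and 34797 on replicate 2. After quantile normalization, which gives every array the same distribution, knockout heat replicate 2 stood at 0.80 to 0.94 of replicate 1 for the 4 genes. AT1G72660 had ratios of 1.71 in the knockout (replicate 2 over 1) and 2.26 in wild type (replicate 1 over 2). In wild type, replicate 2 over replicate 1 was then 1.53 for AT5G07330 and 1.1 for AT5G25450. For AT5G10695 and AT1G21550 it turned to 0.904 and 0.853.

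**Figure D2:**
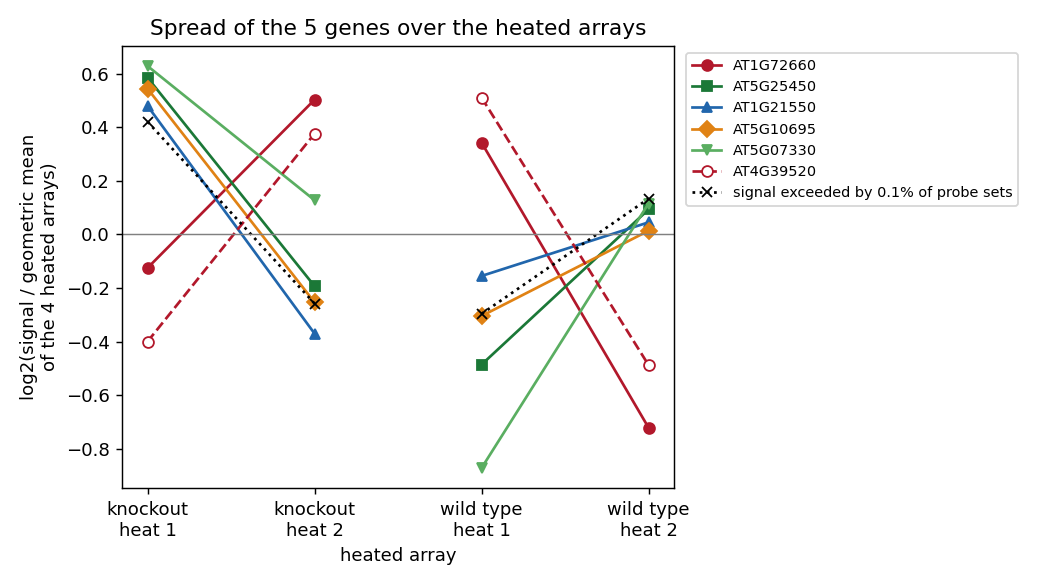
log2 of each gene's signal on the 4 heated arrays over its geometric mean on them (vertical axis), by array (horizontal axis), with lines joining the replicates of a genotype. AT1G72660 and its DRG relative AT4G39520 (open circles) are higher on knockout replicate 2 and wild-type replicate 1, and the other 4 genes and the signal exceeded by 0.1% of the array's probe sets (dotted) are higher on knockout replicate 1 and wild-type replicate 2.

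AT5G10695 and AT5G25450 were the most alike pair among the 5. Over the 8 arrays their log2 signals had a Pearson r of 0.999, and their deviations from the group means had 0.956. For AT1G72660 and AT5G07330 the deviations had -0.897 although r over the 8 arrays was 0.976. The first kind of value rests mostly on the step between heated and control arrays, the second on 4 pairs of replicates, and both share the arrays' scaling, so they are descriptions only.

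Which other genes had the most similar pattern was asked by Pearson r of the log2 signals over the 8 arrays, among 8785 tested probe sets with 1 named gene. For AT5G10695 and AT5G25450 the same 3 genes came first, namely AT1G44414 (0.997 and 0.998), AT5G19875 (0.997 and 0.996) and AT1G67360 (0.996 and 0.996). AT1G67360 encodes a protein of lipid droplets. For AT5G07330 they were AT3G09440, which encodes the HSP70 chaperone HSP70-3 (0.998), AT5G12110, for a translation elongation factor subunit (0.998), and AT1G02700 (0.998).

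For AT1G72660 the closest genes were TET2, a tetraspanin gene (0.997), AT1G23180 (0.996) and AT3G07150 (0.996). For AT1G21550 they were AT1G14200 (0.997), AT2G20560, a J-domain protein gene (0.997), and AT5G61510 (0.996). AT2G20560 shared the uneven controls of AT1G21550, with 9.50 and 11.4 in the knockout and 223 and 31.9 in wild type. Between 135 and 149 named genes had r above 0.95 with each of the 5 genes, so the first 3 stand only slightly ahead of many others.

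Relatives of these genes were not themselves picked for their heat responses, but they share the arrays with the 5. Earlier results of these data were also known. Their heat responses were tested in limma with Benjamini-Hochberg adjustment over all 15919 probe sets at a threshold of 0.05. In the knockout 3.13% of all tested probe sets were called higher after heat and 3.66% lower, and in wild type 1.84% were called higher and 0.71% lower. The lists of relatives were made from textbook membership and not from how the genes moved.

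The DRG family has 3 members in Arabidopsis, and besides AT1G72660 only AT4G39520 had a named probe set. AT4G39520 read 3232 and 5534 in the heated knockout and 1010 and 1325 in the knockout at 22 °C. In wild type it read 6077 and 3042 after heat and 1781 and 1060 at 22 °C. In each genotype the heated arrays lay above the controls, by much less than for AT1G72660. The same held for 18% of all tested probe sets in the knockout and 13% in wild type. AT4G39520 rose in the knockout by 1.84 ± 0.46 on the log2 scale (limma adjusted p = 0.049), whereas in wild type the change of 1.63 ± 0.46 missed the threshold (adjusted p = 0.12). The knockout call was lost under 12 of 20 alternatives, with adjusted p from 0.0024 to 0.25 over them.

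On the heated arrays AT4G39520 had the replicate pattern of AT1G72660. It was 1.71 times higher on knockout heat replicate 2 than on replicate 1, and 2.00 times higher on wild-type heat replicate 1 than on replicate 2. After quantile normalization these ratios were 1.8 and 2.15. The pattern was not limited to DRG genes. In the deposited signals the same ratios were 1.56 and 2.51 for HSA32, and 1.19 and 2.02 for the calmodulin-like gene CML10. AT5G10695, AT5G25450, AT1G21550 and AT5G07330 had the opposite pattern, as said above. Same-numbered heated arrays deviated against each other between genotypes (r = -0.39). The share of all probe sets with the pattern was not counted. The likeness of AT4G39520 and AT1G72660 was seen in the data and rests on 4 arrays, and it was not tested.

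Among the other 14 loci of nuclear-encoded complex III subunits, 10 could be tested. Limma passed 0 of the 10 for heat in the knockout and 0 in wild type, beside 6.78% and 2.55% of all tested probe sets passed in either direction. At an unadjusted p under 0.05, 1 of the 10 passed in the knockout and 0 in wild type, beside 23.4% and 16.9% of all tested probe sets. Their median log2 response was 0.00 in the knockout (range -0.72 to 0.73) and 0.08 in wild type (range -0.27 to 0.49). QCR7-1 (AT4G32470), the other gene for the subunit that AT5G25450 encodes, read 5463 and 4561 in the heated knockout, against 3703 and 2436 in the knockout at 22 °C. It read 3786 and 4833 in heated wild type, against 2989 and 3102 in wild type at 22 °C.

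Both heated arrays of QCR7-1 lay above both controls in each genotype, as for 18% of all tested probe sets in the knockout and 13% in wild type. Its log2 responses of 0.73 ± 0.33 in the knockout (limma adjusted p = 0.23) and 0.49 ± 0.33 in wild type (limma adjusted p = 0.51) did not pass. Those of QCR7-2 were 6.0 and 6.11. The gene for the core subunit MPPBETA, which also processes imported mitochondrial proteins, stood at 0.14 ± 0.39 in the knockout and -0.01 ± 0.39 in wild type. That for the small subunit QCR10 stood at -0.72 ± 0.31 and -0.27 ± 0.31 in that order, and neither passed.

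Calmodulin-like proteins form a large family of calcium sensors. Besides AT1G21550, the list held 48 loci, of which 35 had a named probe set. Of these, 15 were too dim and 20 entered the test. Only CML23 (AT1G66400) passed. It read 308 and 260 in the heated knockout and 91.4 and 43.6 in the knockout at 22 °C, with 169 and 240.4 in heated wild type and 17.3 and 40.8 in wild type at 22 °C. Its heated arrays lay above its controls in each genotype, as for 18% of all tested probe sets in the knockout and 13% in wild type. CML23 rose by 1.74 ± 0.39 in the knockout (limma adjusted p = 0.036) and by 2.02 ± 0.39 in wild type (limma adjusted p = 0.032). Of 19 alternatives 7 ended the knockout call and 9 the wild-type call, and the filter on the dimmest 50% removed it from the test.

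The log2 responses of the 20 were below 0 for 18 genes in the knockout and 17 in wild type, though limma passed 0 as lower. The medians of all tested probe sets also lay below 0, at -0.26 and -0.22. At an unadjusted p under 0.05 in limma, CML23 included, 7 genes passed in the knockout and 4 in wild type. Of all tested probe sets 23.4% and 16.9% did so. Other settings called up to 6 of the family lower in the knockout, where they also called up to 1948 of all 15919 probe sets lower. The median was -0.83 in the knockout and -0.69 in wild type, which is -0.57 and -0.47 relative to the medians of all tested probe sets. CML16 (AT3G25600) had -2.27 ± 0.70, CML27 (AT1G18210) -2.01 ± 0.51 and CML42 -1.57 ± 0.40 in the knockout, with limma adjusted p = 0.09, 0.0502 and 0.051. AT1G21550 itself stood at 8.60 and 6.79 in the same fits.

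**Figure D3:**
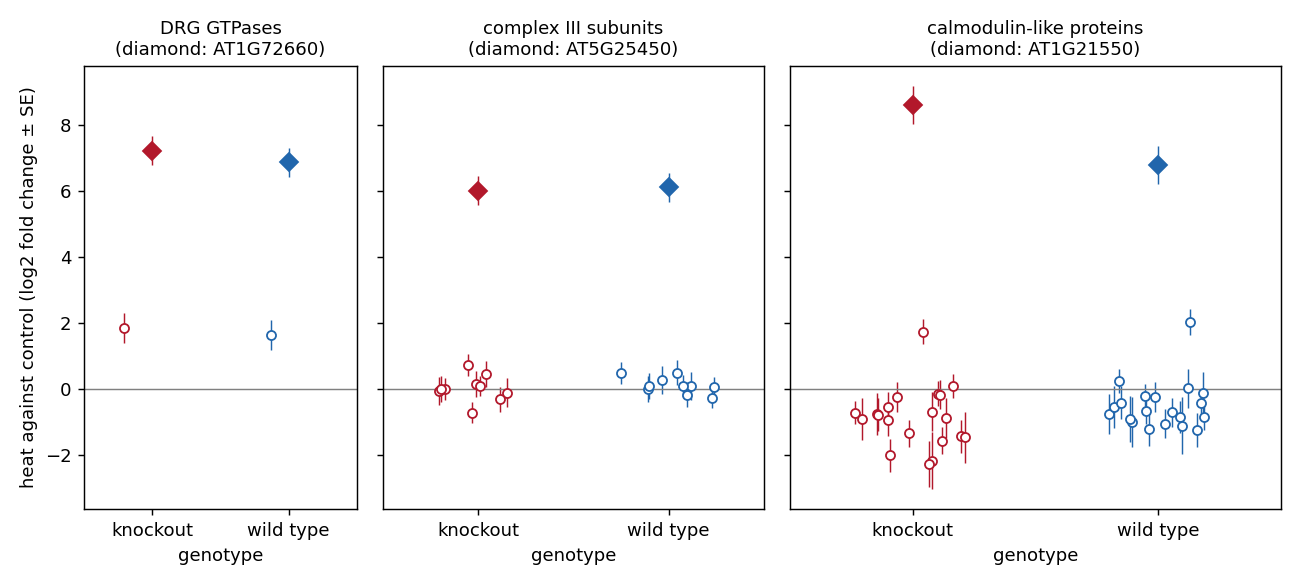
Heat response (log2 fold change ± SE, n = 2 arrays per group) of each tested member of the DRG, complex III and calmodulin-like lists in the knockout (left in each panel) and in wild type. Diamonds are the genes picked for their heat response, at 6.0 to 8.60, and open circles are their relatives, of which AT4G39520 and CML23 reach 1.63 to 2.02 and the others lie at 0.73 or lower.

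The cytosolic methionyl-tRNA synthetase gene AT4G13780, 1 tested of 2 loci listed for that enzyme, stood at -0.35 ± 0.44 in the knockout and -0.80 ± 0.44 in wild type and did not pass. The lists of calmodulins, NFU iron-sulfur scaffolds and heat shock transcription factors had no named probe set. Of the other known heat-response genes outside chaperone families only HSA32 had one. Among small heat shock proteins, the chaperones most often followed after heat, 7 of 8 rose in each genotype, with median log2 responses of 8.42 in the knockout and 7.85 in wild type. These were known to respond before the list was made.

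Genes that lie next to the 5 on the chromosomes were examined as well, taking the 3 protein-coding loci on either side from RefSeq's TAIR10.1 order. Of 30 neighbours 14 were tested. In the knockout 2 rose and 0 fell, and in wild type 0 passed in limma, beside 3.13% and 1.84% of all tested probe sets called higher. At an unadjusted p under 0.05, 6 of the 14 passed in the knockout and 2 in wild type, beside 23.4% and 16.9% of all. The medians were -0.21 and -0.11 in that order. Both genes that rose in the knockout lie within 2 loci of AT1G21550.

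AT1G21560, directly next to AT1G21550, read 947 and 1561 in the heated knockout and 162 and 303 in the knockout at 22 °C. It read 1058 and 655 in heated wild type and 479 and 249.9 in wild type at 22 °C. Its response was 2.3 ± 0.47 in the knockout (adjusted p = 0.025) and 1.2 ± 0.47 in wild type (adjusted p = 0.24). AT1G21530, on the other side and the second locus away, had 1.82 ± 0.45 in the knockout (adjusted p = 0.046) and 1.52 ± 0.45 in wild type (adjusted p = 0.13). AT1G21540, which lies between AT1G21530 and AT1G21550, stood at -0.14 ± 0.67 in the knockout and -0.28 ± 0.67 in wild type. The knockout calls were lost under 5 of 20 alternatives for AT1G21560 and 10 of 19 for AT1G21530, and the dependence of either on its neighbour was not tested.

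Plants labelled knockout and wild type were compared for the 5 genes at each temperature. At 22 °C the HSA32 probe set itself went against the label, with 1125 and 1247 in the knockout and 657 and 230.0 in wild type (log2 difference 1.52 ± 0.57, limma adjusted p = 1), so it does not show a loss of the transcript there. After heat it was lower in the knockout, by -4.87 ± 0.57 (adjusted p = 0.23). Limma passed 0 of the 5 genes between genotypes at either temperature, and 0% of all probe sets. These comparisons share their arrays with the heat responses the genes were picked for. A pick by the knockout response favours high heated and low control signals in the knockout. A pick by the wild-type response does the same in wild type. The differences and their p-values are therefore descriptions.

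After heat all 5 genes lay a little higher in the knockout, by 0.11 to 0.75 on the log2 scale, beside a median of -0.01 over all tested probe sets. Without knockout heat replicate 1 AT5G10695 stood at -0.11 and AT1G21550 at -0.31. Without wild-type heat replicate 2 AT1G72660 stood at -0.15. Nothing is therefore read from the shared direction. AT5G07330 had the largest difference, 0.75 ± 0.52 (limma adjusted p = 1, 95% interval -0.42 to 1.93). With 1 array left out it ran from 0.26 to 1.25, the lowest value being without wild-type heat replicate 1. It was the only gene of the 5 whose knockout arrays both lay above both wild-type arrays, as 9.94% of all tested probe sets did. AT5G25450 differed by 0.39 (95% interval -0.60 to 1.38, and 0.0034 to 0.78 with 1 array left out), AT1G72660 by 0.38 (-0.62 to 1.37), AT5G10695 by 0.29 (-0.60 to 1.18) and AT1G21550 by 0.11 (-1.21 to 1.43). None had an unadjusted p under 0.05, against 1.76% of all probe sets. The intervals leave room for differences of more than 2-fold in each gene.

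At 22 °C the difference of AT1G21550 was -1.70 ± 0.58 (limma adjusted p = 1, 95% interval -3.02 to -0.38). Both knockout signals lay under the offset, so its size depends on that choice, with -2.33 at an offset of 7.275 and -0.91 at 116.4. Its arrays did not overlap, with 28.5 and 11.1 in the knockout and 266 and 53.6 in wild type, as was so for 9.49% of all tested probe sets in that direction. The wild-type mean rests largely on wild-type control replicate 1, without which the difference was -0.78. The source text of that array names heat shock, as said above. On it 7 of 8 small heat shock protein genes read higher than on wild-type control replicate 2. The exception was HSP15.4, the only 1 of the 8 that did not rise after heat. In the knockout, 5 of the 8 read higher on control replicate 1 than on replicate 2. Without HSP15.4 the 7 genes summed to 1259.5 and 615 in the knockout controls and to 1553 and 704 in the wild-type controls. Wild-type control replicate 1 thus had the highest sum. HSP18.5 alone gave 912 and 330 of the knockout sums and 910 and 444 of the wild-type sums, so the sums mostly describe that gene. HSP15.4 read 2957 and 2517 in the knockout controls and 508 and 2024 in the wild-type controls. The part of these genes in the result was not tested. Without an adjustment AT1G21550 was the only gene of the 5 with p under 0.05 at 22 °C, beside 0.515% of all probe sets. Its low knockout controls are part of the rise it was picked for, so nothing is read from this p.

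The other 4 genes overlapped between genotypes at 22 °C. AT5G07330 differed by -0.62 ± 0.52, AT5G25450 by 0.50 ± 0.44, AT5G10695 by 0.33 ± 0.39 and AT1G72660 by 0.03 ± 0.44, with adjusted p = 1 for each. AT5G07330 and AT1G72660 had control means under 61.7 in both genotypes and were tested only because of their heated arrays. Nothing is read from their p-values here. In knockout control replicate 1 AT5G07330 was at 4.6, and without that array the difference was 0.015.

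The interaction sets the heat response in the knockout against that in wild type. It uses the heat responses the genes were picked for, so it is given without a test. By the knockout response AT1G21550 and AT5G07330 stood among the 10 highest named genes, and by the wild-type response AT1G72660 did. AT1G21550 stood at 1.81 ± 0.82 (95% interval -0.06 to 3.68) and AT5G07330 at 1.37 ± 0.73 (-0.28 to 3.03), the larger response being in the knockout. The values were 0.35 ± 0.62 for AT1G72660, -0.04 ± 0.55 for AT5G10695 and -0.11 ± 0.62 for AT5G25450. The interaction of AT1G21550 is made up of a difference of -1.70 at 22 °C and 0.11 after heat. Without wild-type control replicate 1 it was 0.89. For AT5G07330 the differences were -0.62 at 22 °C and 0.75 after heat, and without knockout control replicate 1 the interaction was 0.74.

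**Figure D4:**
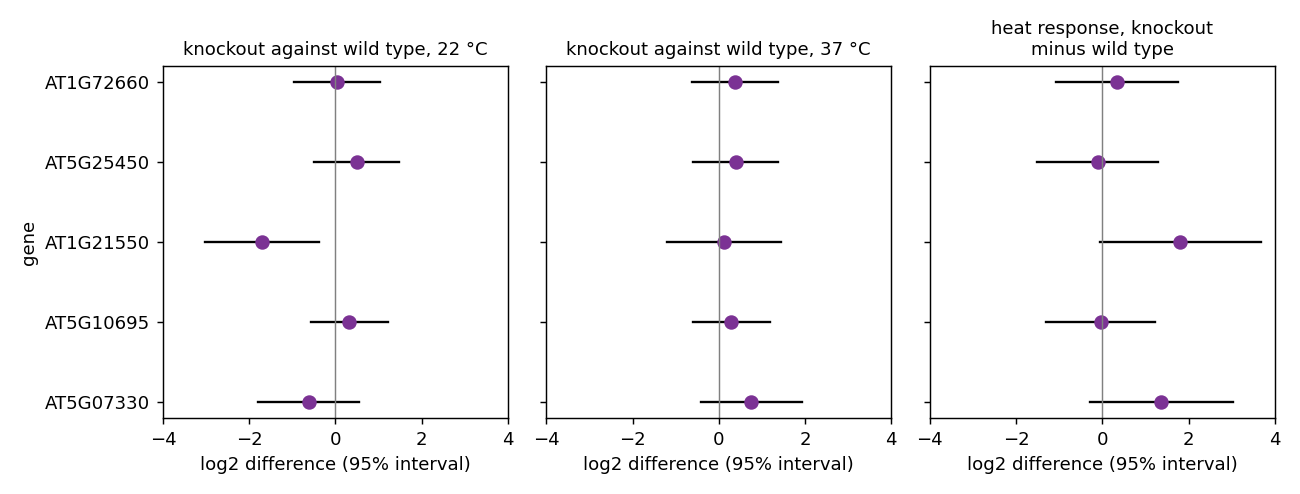
Difference between knockout and wild type at 22 °C and at 37 °C, and difference of the heat responses, on the log2 scale with 95% intervals from limma, for the 5 genes. Of the differences at 22 °C and 37 °C only that of AT1G21550 at 22 °C has an interval off 0 (-3.02 to -0.38). It did not pass after adjustment over all probe sets. The genes were picked for their heat responses on these arrays, so the intervals are descriptions.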

How the data were processed

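Each array came with a linear intensity for every probe set, as deposited by the authors. The sources used here do not name the software, and the common scaling was found from the values. No value was transformed beyond log2(signal + 29.1), apart from the normalization alternatives. Of 22810 probe sets, 64 controls and the dimmest 30% were left out. Limma 3.58.1 (R 4.3.3) fitted 4 group means with a variance trend, which left 4 residual and 4.79 prior degrees of freedom. P-values were two-sided and adjusted by Benjamini-Hochberg over all 15919, and 95% intervals used limma's standard errors. The fit was tested on simulated data. The platform annotation named 13513 probe sets by 1 gene, of which 8790 were tested, and the brightest stood for a locus. RefSeq supplied gene order and some symbols; other gene roles are general background on Arabidopsis.

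The members, gene lists and rules were chosen with earlier results of these data known. Named were the 5 genes, their closest relatives, up to 4 genes per list by heat p, and 3 genes per member by correlation. The neighbours on the chromosome were added after the values had been seen. Same-numbered arrays deviated together within a genotype (r = 0.54 in wild type and 0.52 in the knockout) but against each other between genotypes (-0.39 to -0.24). The main fit did not take the numbers as pairs, in either way. A fit with the pairing crossed between genotypes, chosen after seeing the data, called more probe sets for heat. They were 2860 against 1080 in the knockout and 1406 against 406 in wild type. Which relatives passed for heat can therefore depend on this choice.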

Additional observations from a re-analysis of the deposited data

Results flagged for a closer look

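HSA32 (AT4G21320) is the 1 gene of those named here whose heated arrays moved in opposite directions in the genotypes. Both heated knockout arrays lay below both knockout controls, and both heated wild-type arrays lay above both wild-type controls. Its interaction was -6.39 ± 0.80 on the log2 scale, which did not pass over all probe sets (limma adjusted p = 0.42). The position of its probes with respect to the T-DNA was not available for this work.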

How the results depend on the processing

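Each of the 5 genes kept a positive heat response in each genotype under all 20 alternatives. The genes were picked for large rises on these same arrays, so that sign could hardly change and nothing is read from it. Limma passed 0 of the 5 between genotypes under any alternative. The median heat response of the 5 in the knockout was 8.17 with an offset of 7.275 and 5.74 with an offset of 116.4, and in wild type it was 5.65 with an offset of 116.4. Leaving out 1 array gave 6.90 to 7.53 in the knockout and 6.21 to 6.71 in wild type.

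The count of relatives called for heat in either genotype was 2. It was 1 with the offset of 7.275, quantile normalization, no variance trend or robust moderation, 0 without a filter and with the replicate block, 8 with only the groups compared, 8 with the wild-type replicate 1 arrays both left out, and 0 to 5 with 1 array left out. With the pairing of replicate numbers crossed between genotypes, chosen after seeing the data, it was 8. The calls over all probe sets ranged from 230 to 2860 in the knockout (1080 in the fit as described) and from 154 to 1406 in wild type (406), both highest with the crossed block. The replicate block changed no call among the 5 genes. Up to 6 calmodulin-like genes were called lower in the knockout, beside up to 1948 of all 15919 probe sets.

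Small differences between genotypes changed sign. With quantile normalization AT1G21550 after heat was -0.050. With both wild-type replicate 1 arrays left out, AT1G72660 at 22 °C was -0.13 and the interaction of AT5G10695 was 0.0052. The interaction of AT1G72660 kept its sign there, at 1.04. With 1 array left out, the difference at 22 °C ran from -0.014 to 0.67 for AT5G10695, -1.25 to 0.015 for AT5G07330 and -0.22 to 0.28 for AT1G72660. After heat it ran from -0.11 to 0.69 for AT5G10695, -0.15 to 0.90 for AT1G72660 and -0.31 to 0.53 for AT1G21550, and stayed above 0 for AT5G07330 (0.26 to 1.25) and AT5G25450 (0.0034 to 0.78). The interaction ran from -0.44 to 0.36 for AT5G10695, -0.59 to 0.37 for AT5G25450 and -0.18 to 0.88 for AT1G72660, and the knockout heat response of AT4G13780 from -0.75 to 0.047. The cause was not tested. No detection calls were used, so how far the dim control signals stand above background is not known.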
